A study of Homo sapiens with 36 samples.

Results

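The genes described here are 46 genes of the secretory pathway and the unfolded protein response, chosen by their symbols and matched by Ensembl ID among the 58302 gene IDs counted in each library. RNA had been sequenced from 36 libraries of JEKO, MINO and UPN-1, 3 established lines of mantle cell lymphoma, which are cultured malignant B cells. Each line received the solvent DMSO or GS716054, described by the submitters as a KDM5 inhibitor, and was collected 24 or 72 h after the start of treatment, which gave 12 groups of 3 biological replicates. KDM5 enzymes are histone demethylases that act on methylated lysine 4 of histone H3. All groups shared the same RPMI-1640 medium with fetal bovine serum, and the DMSO libraries of the same line and time were the controls. The dose was not given in the sources used here. The labels name no genetic change in any line, and each line is 1 established culture. The set holds 11 chaperones and cofactors of the ER lumen, 4 disulfide isomerases, 10 genes of ER-associated degradation, 5 sensors and transcription factors, 12 genes for translocation, signal peptide cleavage and sugar transfer, 2 genes for export and 2 other ER proteins (WFS1 and UFM1).

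Proteins that are secreted or placed in membranes are threaded into the endoplasmic reticulum (ER) through the SEC61 channel, trimmed by signal peptidase, given sugars, folded by chaperones and exported in COPII vesicles. When unfolded proteins accumulate, the sensors IRE1 (gene ERN1), PERK (EIF2AK3) and ATF6 switch on genes for chaperones and for ER-associated degradation (ERAD), in which misfolded proteins are returned to the cytosol and destroyed. IRE1 works by splicing the mRNA of the transcription factor XBP1, which B cells need to become antibody-secreting plasma cells. Gene-level counts add the spliced and unspliced forms of XBP1, so they do not measure IRE1 activity.

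Sequences upstream of 6 of the genes are shown first, because chaperone genes are classically induced through short promoter elements. RefSeq promoters (GRCh38.p14, 250 bases before to 50 bases after an annotated start) were found for 42 of the 46 genes. HSPA5, the gene of the main ER chaperone BiP, lies at chr9:125234853-125241382 on the minus strand, and its promoter window is chr9:125241294-125241593. XBP1 (chr22:28794555-28800597, minus strand) has the window shown at chr22:28800520-28800819. Another XBP1 window, at chr22:28800028-28800327, held no match and is not shown. HERPUD1, an organiser of ERAD (chr16:56932142-56944864, plus strand), has its window at chr16:56931892-56932191. Capitals mark the fixed letters of the ER stress response element (ERSE; CCAAT, then 9 bases of any kind, then CCACG) in HSPA5 and XBP1, and of ERSE-II (ATTGG, 1 base, CCACG) in HERPUD1.

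HSPA5: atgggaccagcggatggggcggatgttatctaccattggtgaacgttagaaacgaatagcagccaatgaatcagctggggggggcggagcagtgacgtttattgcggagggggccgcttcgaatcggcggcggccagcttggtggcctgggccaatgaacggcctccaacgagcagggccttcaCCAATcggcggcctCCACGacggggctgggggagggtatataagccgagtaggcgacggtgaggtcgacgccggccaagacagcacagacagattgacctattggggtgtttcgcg

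XBP1: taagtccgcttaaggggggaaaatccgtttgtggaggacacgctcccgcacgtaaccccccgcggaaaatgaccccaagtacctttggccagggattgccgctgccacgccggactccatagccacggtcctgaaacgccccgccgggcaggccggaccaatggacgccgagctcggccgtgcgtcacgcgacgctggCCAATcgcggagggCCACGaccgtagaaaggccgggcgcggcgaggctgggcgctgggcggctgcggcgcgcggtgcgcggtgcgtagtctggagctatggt

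HERPUD1: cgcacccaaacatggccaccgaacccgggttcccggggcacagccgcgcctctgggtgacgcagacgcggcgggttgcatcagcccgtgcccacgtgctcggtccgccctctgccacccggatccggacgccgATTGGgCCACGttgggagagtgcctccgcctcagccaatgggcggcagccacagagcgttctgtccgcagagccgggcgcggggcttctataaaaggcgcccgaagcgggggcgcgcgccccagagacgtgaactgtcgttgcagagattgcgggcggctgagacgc

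The other windows belong to the 3 genes called lower with GS716054 without the replicate block, all of them in MINO. Further genes, XBP1 and HERPUD1 among them, were called only with that block, which is described with the results. They are FKBP11 (chr12:48921518-48926474, minus strand, window chr12:48925443-48925742), EDEM1 (chr3:5187646-5219958, plus strand, window chr3:5187457-5187756) and SEC11C (chr18:59139866-59158832, plus strand, window chr18:59139634-59139933). These windows held neither element on either strand and are printed without capitals. Another FKBP11 window, at chr12:48924939-48925238, held no match either and is not shown.

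FKBP11: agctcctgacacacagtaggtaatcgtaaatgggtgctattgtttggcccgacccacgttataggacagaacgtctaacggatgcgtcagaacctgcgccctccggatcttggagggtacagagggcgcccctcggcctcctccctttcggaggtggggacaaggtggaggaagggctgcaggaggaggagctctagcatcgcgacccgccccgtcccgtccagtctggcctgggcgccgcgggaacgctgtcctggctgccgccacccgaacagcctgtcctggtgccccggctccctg

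EDEM1: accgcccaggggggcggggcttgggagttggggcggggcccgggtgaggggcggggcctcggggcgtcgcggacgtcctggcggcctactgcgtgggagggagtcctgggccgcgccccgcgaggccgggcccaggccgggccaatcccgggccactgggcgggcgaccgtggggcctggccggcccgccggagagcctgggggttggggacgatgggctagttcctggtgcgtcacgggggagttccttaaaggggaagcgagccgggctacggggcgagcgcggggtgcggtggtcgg

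SEC11C: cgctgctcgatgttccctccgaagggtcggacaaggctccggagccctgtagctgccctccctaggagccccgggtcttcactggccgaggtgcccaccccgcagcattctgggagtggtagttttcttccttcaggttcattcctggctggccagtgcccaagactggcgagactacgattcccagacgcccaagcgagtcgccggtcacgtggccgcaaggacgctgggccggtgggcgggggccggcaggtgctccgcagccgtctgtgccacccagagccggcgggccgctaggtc

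The ERSE was found on either strand in 5 of the 42 genes (CRELD2, HSP90B1, HSPA5, PDIA6 and XBP1), against 0.0769% of all 35116 promoters in the table. ERSE-II was found in 3 (HERPUD1, HYOU1 and SDF2L1), against 0.0541%. The unfolded protein response element TGACGTGG was found in 5 (HYOU1, SSR3, SSR4, TXNDC11 and TXNDC5), against 0.729%, and the match in HYOU1 overlaps one of its ERSE-II matches. The 42 genes had 52 windows, and a gene was counted when any of its windows held a match, while the percentages are per promoter. A match describes letters in the window and not a bound site, and a window without a match lacks only these letters.

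Between 8784815 and 14970876 reads per library had been assigned to genes. All 46 genes passed the filter on low counts in each line. Levels are CPM, which are counts scaled to a common total of reads in genes with library sizes adjusted by TMM, listed in the order of replicates 1, 2 and 3, and differences are log2 fold changes ± SE. A gene was called at an edgeR quasi-likelihood adjusted p under 0.05 over all genes tested, and the labels do not say whether the biological replicates were grown apart, so p-values measure the spread between these libraries. Libraries of the same line, time and replicate number deviated together, with correlations above 0.1 in every pair, in 5 of the 6 treatment comparisons. In JEKO at 24 h the pair of replicate 2 was at 0.055. Values from a fit with the replicate number as a block within each time are therefore given wherever they change a call.

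Some 72 h libraries stood apart in these genes. JEKO DMSO replicate 1 was the highest of its group in 39 of the 46 genes, against 40.8% of all genes. JEKO GS716054 replicate 1 was the highest in 41, against 38.8%. JEKO DMSO replicate 2 was the lowest of its group in 38 of the 46 genes, against 32.3% of all genes. With GS716054, replicate 3 was the lowest in 26, against 30.2%, and replicate 2 in 19, against 30.7%. The summed level of the 46 genes was 7150, 3674 and 4907 CPM in the 3 JEKO DMSO libraries at 72 h and 6110, 3659 and 3522 CPM in the GS716054 libraries. In MINO at 72 h, DMSO replicate 2 was the highest of its group in 30 of the 46 genes, against 43.4% of all genes. Its sum was 6389 CPM, beside 5029 and 4855 CPM in replicates 1 and 3. MINO GS716054 replicate 2 did not stand apart in the sum, at 4839 CPM beside 4760 and 4945 CPM. It was the highest of its group in 18 genes and the lowest in 24, against 41.4% and 40.0% of all genes. In the groups at 24 h the sums lay between 4054 and 5368 CPM. Results at 72 h are therefore also given without the same-numbered pair of replicate 1 in JEKO and of replicate 2 in MINO. No fit left out the JEKO replicate 2 pair.

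**Figure D1:**
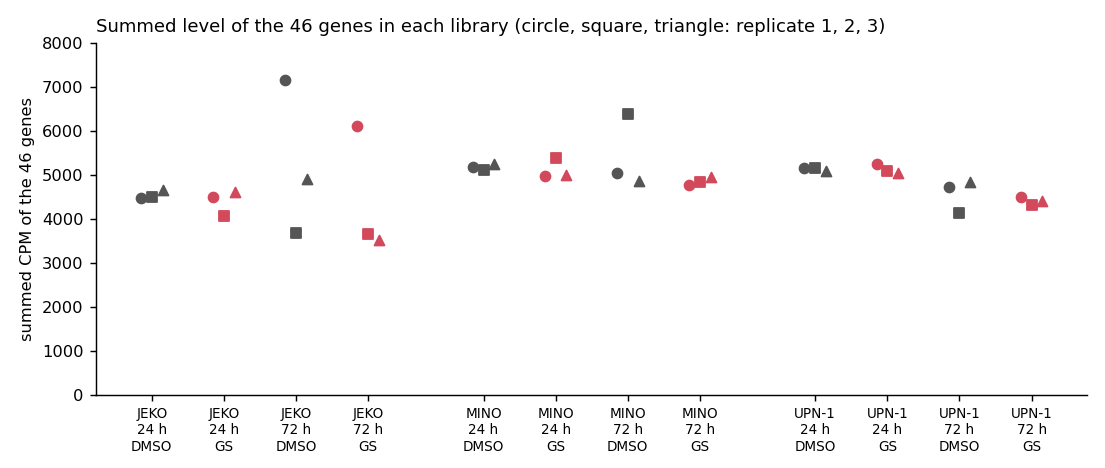
Summed CPM of the 46 genes in each of the 36 libraries, by line, time and treatment (grey, DMSO; red, GS716054; circle, square and triangle, replicates 1, 2 and 3). JEKO replicate 1 at 72 h reached 7150 CPM with DMSO and 6110 CPM with GS716054, and MINO DMSO replicate 2 at 72 h reached 6389 CPM.

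The B-cell identity of the lines was present in the RNA. Over all 36 libraries the B-cell genes MS4A1, CD79A, CD79B and PAX5 were never below 195, 290.1, 297 and 107 CPM. Markers of other cells were low, with sums of at most 6.58 CPM for 3 myeloid genes, 9.1 CPM for 3 T-cell genes and 20.0 CPM for 3 fibroblast or epithelial genes. All GS716054 libraries lay above all DMSO libraries in 5 of these sums. The T-cell sum did so in JEKO at 72 h (4.96 to 9.1 CPM against 1.01 to 1.58 CPM) and in MINO at 24 h (2.97 to 4.24 CPM against 1.59 to 2.12 CPM). The myeloid sum did so in MINO at 24 h (2.04 to 6.58 CPM against 0.599 to 2.001 CPM). The fibroblast or epithelial sum did so in JEKO at 24 h (5.99 to 6.49 CPM against 3.49 to 5.56 CPM) and in MINO at 72 h (17.5 to 20.0 CPM against 8.77 to 15.7 CPM). Their part in the results was not tested. In bulk RNA, fewer cells of a kind and less RNA per cell cannot be told apart.

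With DMSO at 24 h, the median level of the 46 genes per kb of canonical transcript was 24.7, 25.1 and 27.6 CPM in JEKO, MINO and UPN-1, and 9 genes exceeded 100 CPM per kb in each line. The lowest per kb were the disulfide isomerase TXNDC5 in JEKO (0.812) and the sensor ERN1 in MINO (1.71) and UPN-1 (1.53). The highest were the translocation channel subunit SEC61B in JEKO (321) and SSR4, a subunit of the translocon-associated protein complex, in MINO (451) and UPN-1 (519.5). MZB1, a B-cell chaperone of immunoglobulin assembly, stood at 201, 252 and 237 CPM per kb in JEKO, MINO and UPN-1, and HSPA5 at 139, 75.3 and 107.

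**Figure D2:**
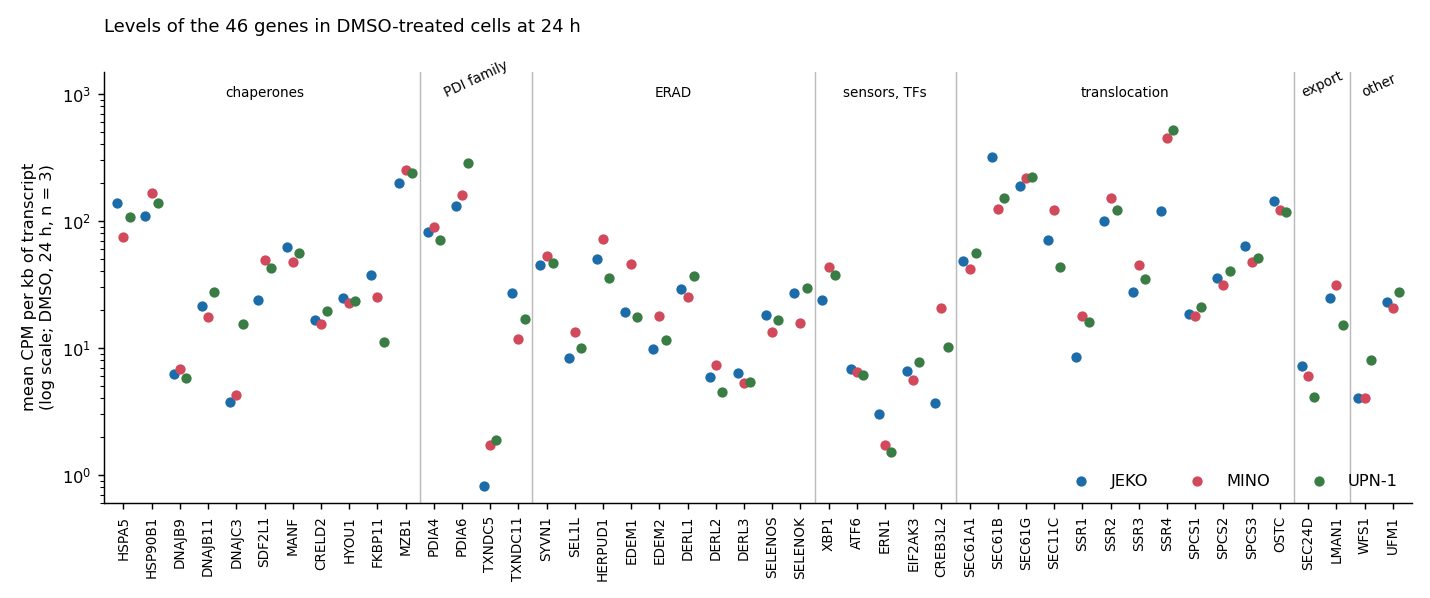
Mean level of each of the 46 genes in the DMSO libraries at 24 h (3 per line), in CPM per kb of canonical transcript on a log axis, grouped by role. SSR4 reached 519.5 CPM per kb in UPN-1 and CREB3L2 differed most between MINO and JEKO, at 20.5 and 3.70 CPM per kb.

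Single genes of the set differed between the lines, in both directions. In MINO against JEKO, 12 of the 46 genes were higher and 5 lower, where 22% and 25.9% of all 17980 genes tested were called higher and lower. The largest difference was in CREB3L2, a membrane-bound transcription factor related to ATF6, with 22, 29.8 and 30.7 CPM in JEKO and 152, 139.6 and 167 CPM in MINO (2.47 ± 0.22, adjusted p = 4.34e-11). SSR4 stood at 74.0, 69.3 and 75.1 CPM in JEKO, 257, 284 and 281 CPM in MINO and 333, 298 and 317 CPM in UPN-1. It was higher in MINO by 1.91 ± 0.31 (adjusted p = 4.66e-06) and in UPN-1 by 2.12 ± 0.31 (adjusted p = 1.13e-06). The other 3 subunits of its complex, SSR1, SSR2 and SSR3, were also called higher in MINO than in JEKO, by 1.07, 0.59 and 0.71. SEC61B went the other way, at 175, 180.4 and 187 CPM in JEKO and 64.6, 70.0 and 75.5 CPM in MINO (-1.37 ± 0.27, adjusted p = 8.05e-05). In all 3 genes every MINO library lay outside the range of the JEKO libraries. HSPA5 was lower in MINO (-0.89, adjusted p = 0.00338) and XBP1 higher (0.86, adjusted p = 0.0325), as was EDEM1 (1.26 ± 0.21, adjusted p = 1.2e-05), whose levels follow. The count of 17 became 11 without MINO DMSO replicate 2 at 24 h.

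In UPN-1 against JEKO, 8 of the 46 genes were higher and 6 lower, beside 21.2% and 23.8% of all genes. DNAJC3, a co-chaperone of BiP, was at 18.4, 20.2 and 24.8 CPM in JEKO, 25.2, 20.7 and 24.9 CPM in MINO and 82.5, 83.4 and 92.3 CPM in UPN-1. UPN-1 stood alone, 2.03 ± 0.24 above JEKO (adjusted p = 3.58e-08) and 1.87 ± 0.24 above MINO (adjusted p = 1.52e-07), while the other two lines overlapped. FKBP11, a prolyl isomerase of the ER, ran in the reverse order, at 25.7, 26.5 and 26.1 CPM in JEKO, 15.8, 19.7 and 16.7 CPM in MINO and 7.24, 8.25 and 7.77 CPM in UPN-1. It was lower in UPN-1 than in JEKO (-1.75 ± 0.26, adjusted p = 2.12e-06), and none of the 3 lines overlapped. CREB3L2 was higher in UPN-1 than in JEKO by 1.45 ± 0.21 (adjusted p = 1.03e-06), at 85.3, 71.5 and 69.4 CPM.

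In UPN-1 against MINO, 10 genes were higher and 8 lower, beside 23.3% and 21.1% of all genes. EDEM1, a mannosidase-like protein that hands misfolded glycoproteins to ERAD, was at 275, 282 and 288 CPM in MINO and 111, 103 and 109.5 CPM in UPN-1 (-1.39 ± 0.21, adjusted p = 3.08e-06). With 129.7, 123 and 102 CPM in JEKO, MINO held the most. SEC11C, a catalytic subunit of signal peptidase, was at 53.9, 55.1 and 60.5 CPM in JEKO, 90.5, 105 and 91.8 CPM in MINO and 38.5, 31.5 and 33.0 CPM in UPN-1, and lower in UPN-1 than in MINO (-1.48 ± 0.29, adjusted p = 0.000106). FKBP11 was also lower in UPN-1 than in MINO (-1.17 ± 0.27, adjusted p = 0.000559). EDEM1, SEC11C and FKBP11 are also the genes called lower with GS716054 in MINO without the replicate block, and the MINO DMSO libraries at 24 h enter both this comparison and the 24 h treatment comparison.

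Longer culture with DMSO alone moved part of the set. In JEKO, 8 of the 46 genes were called over time, all of them higher at 72 h than at 24 h, where 17.1% of all genes were called higher. The share of the set called higher was thus close to that of all genes. None of the 46 was called lower, where 2443 of all 16690 genes tested were. Of the 8, 5 were among the 10 ERAD genes (SYVN1, HERPUD1, EDEM1, EDEM2 and DERL3), and the others were ERN1, CRELD2 and WFS1. ERN1 was at 23.9, 22.5 and 24.7 CPM at 24 h and 126, 33.5 and 108 CPM at 72 h (1.92 ± 0.52, adjusted p = 0.014). HERPUD1 was at 149, 139.7 and 138 CPM and then 501, 200.4 and 313 CPM (1.25 ± 0.35, adjusted p = 0.0158). SYVN1, the ubiquitin ligase of ERAD, was at 126, 131 and 151 CPM and then 199, 192 and 205 CPM (0.55 ± 0.12, adjusted p = 0.00541). In ERN1, HERPUD1 and SYVN1 all 72 h libraries lay above all 24 h libraries, but the 72 h spread was wide in ERN1 and HERPUD1 and narrow in SYVN1. The count of 8 became 4 without JEKO DMSO replicate 1 at 72 h, and 5, 4 and 3 without replicates 1, 2 and 3 at 24 h.

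In MINO, EDEM1 alone was called over time, at 275, 282 and 288 CPM at 24 h and 574, 569 and 557 CPM at 72 h (1.01 ± 0.16, adjusted p = 0.0378), where 0.0865% of all genes were called higher. The call was lost (0 genes) without DMSO replicate 1 or 3 of either time. In UPN-1, edgeR called 0 of the 46 genes, where 1.47% of all genes were called in either direction. An unadjusted p under 0.05 was found in 15 of the 46, and in 3888 of all 15248 genes tested. Without DMSO replicate 3 at 72 h, 13 were called, beside 19.6% of all genes. The DMSO libraries at 72 h enter both this comparison over time and the 72 h treatment comparison.

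GS716054 changed few of the 46 genes when libraries were treated as unpaired. In JEKO, edgeR called 0 at 24 h and 0 at 72 h, where 0.018% and 0.3% of all genes were called in either direction. At an unadjusted p under 0.05 there were 2 and 3, beside 662 and 1438 of all 16690 genes. DESeq2 called 0 and 1, beside 25 and 226 of all genes. In MINO, 1 gene fell at 24 h (FKBP11) and 3 fell at 72 h (FKBP11, EDEM1 and SEC11C), where 0.952% and 2.05% of all genes were called lower. None of the 46 was called higher at either time, where 1.44% and 3.51% of all genes were. In UPN-1, edgeR called 0 at 24 h and 0 at 72 h, where 0.0262% and 0.334% of all genes were called. At an unadjusted p under 0.05 there were 1 and 4, beside 577 and 1130 of all 15248 genes. DESeq2 called 1 at each time, which was SYVN1, beside 19 and 158 of all genes.

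With the replicate block, more of the 46 genes and more of all genes were called. JEKO had 0 genes called at 24 h, where 0.0899% of all genes were called, and 2 lower at 72 h, where 1.44% were called lower. At 24 h, 2 of the 46 had an unadjusted p under 0.05, beside 1407 of all 16690 genes. MINO had 2 higher and 5 lower at 24 h, where 8.43% and 7.36% of all genes were called, and 9 lower at 72 h, where 9.8% were. None of the 46 was called higher at 72 h in JEKO or MINO, where 316 of 16690 and 1556 of 15028 genes were. UPN-1 had 1 higher and 1 lower at 24 h, beside 0.918% and 0.577% of all genes, and 1 higher and 4 lower at 72 h, beside 4.18% and 3.29%.

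The median log2 fold change of the 46 genes was -0.07 at 24 h and -0.23 at 72 h in JEKO, while MINO had -0.01 and -0.07 and UPN-1 had -0.02 and -0.03. Over all genes tested the medians lay between -0.03 (MINO at 72 h) and 0.0051 (MINO at 24 h). In JEKO at 72 h, 42 of the 46 genes had a negative value, from -0.75 (ERN1) to 0.15 (ATF6). The other ranges were -0.33 (MANF) to 0.45 (WFS1) in JEKO at 24 h, -0.99 (FKBP11) to 0.50 (HERPUD1) in MINO at 24 h, -0.44 (SYVN1) to 0.54 (DERL3) in UPN-1 at 24 h and -0.53 (HERPUD1) to 0.64 (DERL3) in UPN-1 at 72 h. In JEKO at 72 h the summed level was lower with GS716054 in all 3 replicates, by little in replicate 2. The widest spread between genes was in MINO at 72 h, from -1.13 (FKBP11) to 0.42 (WFS1).

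**Figure D3:**
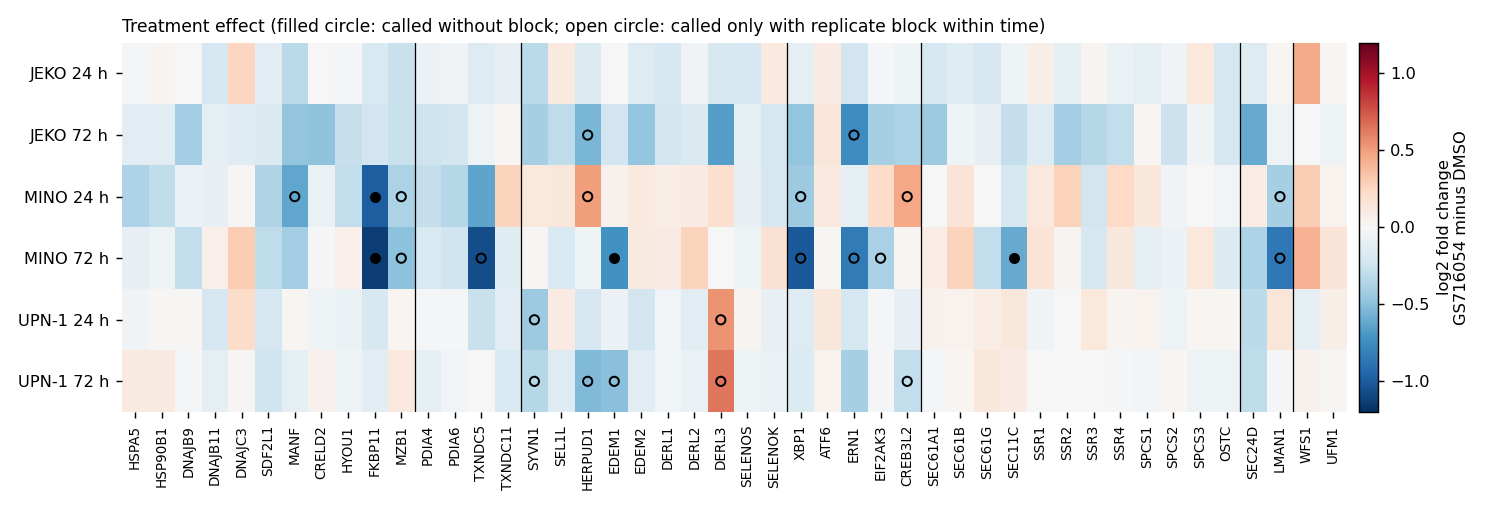
Log2 fold change of GS716054 against DMSO for the 46 genes (columns, ordered by role) in each line and time. Filled circles mark the 4 changes called without the block (FKBP11 in MINO at both times, EDEM1 and SEC11C in MINO at 72 h) and open circles those called only with the replicate block.

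Complete separation of treated from DMSO libraries was also counted. In MINO at 24 h, all treated libraries lay above all DMSO libraries in 10 of the 46 genes and below them in 10, where 19.9% and 15.1% of all genes did so. In MINO at 72 h the counts were 1 above and 7 below, where all genes gave 12.4% and 10%. In JEKO they were 1 above and 3 below at 24 h (7.03% and 5.51% of all genes) and 0 above and 3 below at 72 h (6.51% and 4.8%). In UPN-1 they were 5 above and 1 below at 24 h (7.82% and 6.96%) and 0 above and 3 below at 72 h (5.15% and 3.79%).

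In MINO at 24 h, 10 of the 11 luminal chaperones and cofactors had a negative value (median -0.30), while 8 of the 10 ERAD genes had a positive one (median 0.11). FKBP11 was at 15.8, 19.7 and 16.7 CPM with DMSO and 9.03, 10.01 and 7.76 CPM with GS716054 at 24 h (-0.99 ± 0.18, adjusted p = 0.0185). At 72 h it was at 18.3, 20.2 and 14.9 CPM and 7.07, 8.35 and 9.19 CPM (-1.13 ± 0.18, adjusted p = 0.0042). FKBP11 thus stood well below its DMSO level at both times, with no overlap between the groups, and without the block it was the only one of the 46 genes called at both. The 24 h call was lost when any 1 of the 6 libraries was left out (adjusted p from 0.0612 to 0.0807), while the 72 h call was kept without each. HSPA5 was at 297, 268 and 321 CPM and 228, 240.4 and 229 CPM at 24 h (-0.37 ± 0.16, adjusted p = 0.243; 0.122 with the block). At 72 h it was at 169.6, 217 and 173 CPM and 186, 135 and 205 CPM (-0.10 ± 0.16, adjusted p = 0.761). BiP mRNA was thus lower in every treated library at 24 h, and overlapped the controls at 72 h. Fitting just those 6 libraries of MINO at 24 h, edgeR called HSPA5 lower (-0.38, adjusted p = 0.0144). That fit called 2557 of 14083 genes, 1296 of them lower. HSPA5 was not called at 24 h in the 7 other alternative fits that kept all replicates, or when any 1 of the 6 libraries was left out.

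With the block, 3 of the 11 chaperone genes were called lower in MINO at 24 h, FKBP11, MANF and MZB1. MANF, a stress-induced cofactor of BiP, was at 45.2, 35.9 and 48.6 CPM and 28.9, 28.5 and 28.5 CPM (block -0.61 ± 0.16, adjusted p = 0.0197). MZB1 was at 216, 265 and 218 CPM and 174, 194 and 179 CPM (block -0.38 ± 0.12, adjusted p = 0.0411), and at 72 h at 279.9, 246 and 269 CPM and 215, 143 and 211 CPM (block -0.52 ± 0.12, adjusted p = 0.00695). Treated and DMSO libraries were apart in each of these. Among the 4 disulfide isomerases, TXNDC5 was called lower at 72 h with the block, at 5.46, 6.11 and 5.55 CPM and 3.06, 2.91 and 2.27 CPM (-1.08 ± 0.33, adjusted p = 0.035). Of its exonic bases, 60.9% are shared with the readthrough gene BLOC1S5-TXNDC5 on the same strand, so its count is uncertain.

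Of the 10 ERAD genes, EDEM1 fell in MINO at 72 h, from 574, 569 and 557 CPM to 347, 429 and 259.5 CPM (-0.73 ± 0.16, adjusted p = 0.0207). At 24 h it was at 275, 282 and 288 CPM and 316, 301 and 276 CPM (0.05 ± 0.16, adjusted p = 0.905). The treated level at 72 h thus overlapped the 24 h levels of both groups, and the DMSO level at 72 h was above them. The 72 h call was lost without DMSO replicate 1 (adjusted p = 0.0682) or 3 (adjusted p = 0.0584). HERPUD1 went the other way at 24 h, at 188, 224 and 208 CPM with DMSO and 262, 360.4 and 273 CPM with GS716054 (block 0.49 ± 0.13, adjusted p = 0.0178). At 72 h HERPUD1 was at 238, 335 and 213 CPM and 272, 259 and 232 CPM (-0.05 ± 0.18, adjusted p = 0.895), with overlapping groups.

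Among the 5 sensors and transcription factors, XBP1 was at 76.9, 82.4 and 75.3 CPM and 58.4, 68.3 and 50.7 CPM at 24 h (block -0.44 ± 0.13, adjusted p = 0.034). At 72 h it was at 89.8, 247 and 95.4 CPM and 55.8, 101 and 59.5 CPM (-1.01 ± 0.33, adjusted p = 0.0957; block -0.91 ± 0.13, adjusted p = 0.000366). Replicate 2 was high in both groups at 72 h, so the groups overlapped although every treated library was below the DMSO library of its number. Without that pair the values lay apart, and edgeR called the difference without the block (-0.71 ± 0.13, adjusted p = 0.00266). The unpaired value for XBP1 was -0.416 (adjusted p = 0.211) without DMSO replicate 2 alone and -1.317 (adjusted p = 0.0439) without GS716054 replicate 2 alone. ERN1, whose product splices XBP1 mRNA, was at 13.9, 14.98 and 11.6 CPM and 11.6, 13.5 and 13.3 CPM at 24 h (-0.11 ± 0.26, adjusted p = 0.872). At 72 h ERN1 was at 22.3, 31.7 and 23.2 CPM and 10.95, 21.8 and 10.5 CPM (-0.84 ± 0.25, adjusted p = 0.0713; block -0.90 ± 0.16, adjusted p = 0.00166). The groups did not overlap at 72 h. Without the replicate 2 pair ERN1 was called in the unpaired fit as well (-1.12 ± 0.17, adjusted p = 0.000996). The unpaired value for ERN1 was -0.708 (adjusted p = 0.0987) without DMSO replicate 2 alone and -1.267 (adjusted p = 0.0035) without GS716054 replicate 2 alone.

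EIF2AK3 was at 27.4, 23.6 and 25.7 CPM and 32.8, 28.6 and 29.7 CPM at 24 h, with treated libraries higher, and at 31.7, 42.8 and 29.6 CPM and 25.3, 28.7 and 26.3 CPM at 72 h, with treated libraries lower. The second difference was called with the block (-0.37 ± 0.12, adjusted p = 0.0442) and the first was not (0.22 ± 0.12, adjusted p = 0.265). CREB3L2 was called higher at 24 h with the block, at 152, 139.6 and 167 CPM and 212, 246 and 186 CPM (0.46 ± 0.13, adjusted p = 0.0285). ATF6 stayed between 40.2 and 58.4 CPM in all 36 libraries, and its lowest adjusted p over the 6 treatment comparisons was 0.66 without and 0.498 with the block.

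Of the 12 genes for translocation, signal peptidase and sugar transfer, SEC11C fell in MINO at 72 h, from 102, 137 and 87.8 CPM to 70.1, 68.2 and 77.4 CPM (-0.61 ± 0.15, adjusted p = 0.0346). The groups did not overlap. This call was lost without DMSO replicate 1 (adjusted p = 0.0793) and without GS716054 replicate 1, 2 or 3 (0.0795, 0.0625 and 0.0564), and without the replicate 2 pair the value was -0.40 ± 0.12 (adjusted p = 0.0452). None of the other 11, which include the SEC61 and SSR subunits, was called in MINO at either time with all libraries, with or without the block. At 24 h the treated libraries lay above all DMSO libraries in SSR1, SSR2, SSR4 and SPCS1 and below them in SSR3, with values between -0.22 and 0.27. Of the 2 export genes, LMAN1, a receptor that ferries glycoproteins out of the ER, was at 155, 152 and 150.2 CPM and 119, 121 and 113 CPM at 24 h (block -0.40 ± 0.11, adjusted p = 0.0251). At 72 h LMAN1 was at 142, 295 and 133 CPM and 83.5, 143 and 90.4 CPM (block -0.80 ± 0.11, adjusted p = 0.000313). It resembled XBP1 in that replicate 2 was high in both groups, and without that pair it was called in the unpaired fit (-0.69 ± 0.10, adjusted p = 0.000504). The unpaired value for LMAN1 was -0.435 (adjusted p = 0.129) without DMSO replicate 2 alone and -1.13 (adjusted p = 0.028) without GS716054 replicate 2 alone.

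Leaving out the replicate 2 pair in MINO at 72 h raised the unpaired count from 3 to 10, with 3 genes higher and 7 lower, where 7.79% and 6.6% of all genes were called in those directions. The 7 lower genes were LMAN1, EDEM1, ERN1, XBP1, FKBP11, MZB1 and SEC11C. The 3 higher were SEC61B (0.48), DNAJC3 (0.56) and DERL1 (0.34). With the block and without that pair, 5 genes were called higher and 8 lower, beside 11.8% and 11.3% of all genes.

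**Figure D4:**
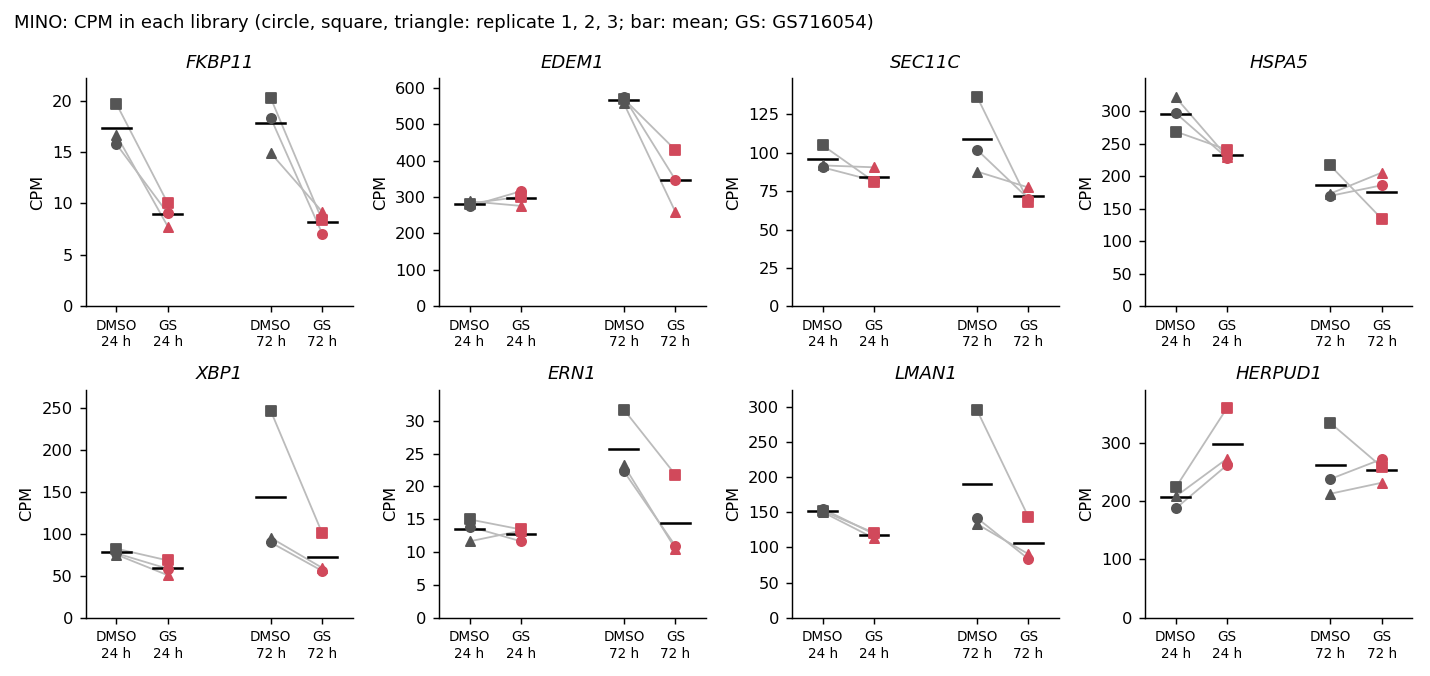
CPM of 8 genes in the 12 MINO libraries, with DMSO in grey, GS716054 in red, lines joining libraries of the same replicate number and bars at the means. FKBP11 fell at both times, EDEM1 and SEC11C at 72 h, and replicate 2 (square) was high in both groups at 72 h for XBP1, ERN1 and LMAN1.

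In JEKO at 24 h none of the 46 genes was called with or without the block, and the 2 genes of smallest p were WFS1, an ER membrane glycoprotein, and SYVN1. WFS1 was at 12.9, 15.9 and 15.5 CPM with DMSO and 20.6, 20.3 and 19.9 CPM with GS716054, and SYVN1 at 126, 131 and 151 CPM and 109, 107 and 113 CPM, neither with overlap (block adjusted p = 0.339 and 0.376). HSPA5 was at 519, 529 and 591 CPM with DMSO and 536, 539 and 554 CPM with GS716054 (-0.02 ± 0.31, adjusted p = 0.9998). XBP1 was at 40.6, 44.9 and 43.7 CPM and 44.1, 34.9 and 42.0 CPM, and ERN1 at 23.9, 22.5 and 24.7 CPM and 15.2, 25.8 and 19.8 CPM. The groups overlapped in all 3 genes. EIF2AK3 also overlapped, at 31.3, 30.8 and 27.0 CPM and 30.3, 34.1 and 24.9 CPM.

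At 72 h in JEKO, all 10 ERAD genes and all 11 chaperone genes had negative values, and the genes called with the block were HERPUD1 and ERN1. HERPUD1 was at 501, 200.4 and 313 CPM with DMSO and 388, 141 and 163 CPM with GS716054 (block -0.60 ± 0.12, adjusted p = 0.02; 0.762 without). ERN1 was at 126, 33.5 and 108 CPM and 104, 20.0 and 34.7 CPM (block -0.87 ± 0.21, adjusted p = 0.0485; 0.787 without). Each treated library was below the DMSO library of its number, but replicate 1 with GS716054 was above DMSO replicate 2, so the groups overlapped. The sizes rested on single libraries. In the unpaired fit ERN1 ranged from -0.365 without GS716054 replicate 2 to -1.705 without GS716054 replicate 1, with -0.419 and -1.152 without DMSO replicates 1 and 2. HERPUD1 ranged from -0.155 without DMSO replicate 1 to -1.158 without GS716054 replicate 1, with -0.829 and -0.298 without DMSO replicate 2 and GS716054 replicate 2. None of these values was called. SYVN1 showed the opposite kind of spread, at 199, 192 and 205 CPM and 159, 149.7 and 142 CPM, tight within groups and apart between them (block -0.40 ± 0.10, adjusted p = 0.0521, 0.265 without the block and 0.0304 with DESeq2). XBP1 was at 110.1, 38.4 and 70.3 CPM and 83.1, 30.1 and 43.9 CPM (block -0.48 ± 0.12, adjusted p = 0.0521), and HSPA5 at 677, 251.2 and 422 CPM and 614, 316 and 302 CPM (block -0.10 ± 0.14, adjusted p = 0.807). EIF2AK3 was lower in every treated library, at 28.9, 31.5 and 31.3 CPM and 26.7, 22.2 and 20.3 CPM, and was not called (-0.40 ± 0.15, adjusted p = 0.44; 0.116 with the block).

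Without the replicate 1 pair, 3 genes were called lower with the block in JEKO at 72 h, where 0.599% of all genes were. They were SEC24D, a cargo adaptor of COPII vesicles (-1.19 ± 0.19, adjusted p = 0.017), HERPUD1 (-0.72 ± 0.13, adjusted p = 0.0246) and ERN1 (-1.21 ± 0.21, adjusted p = 0.0268). Without the block and that pair, edgeR called 0 of the 46 genes and 0.162% of all genes. An unadjusted p under 0.05 was found in 14 of the 46, and in 1395 of all 16700 genes tested.

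**Figure D5:**
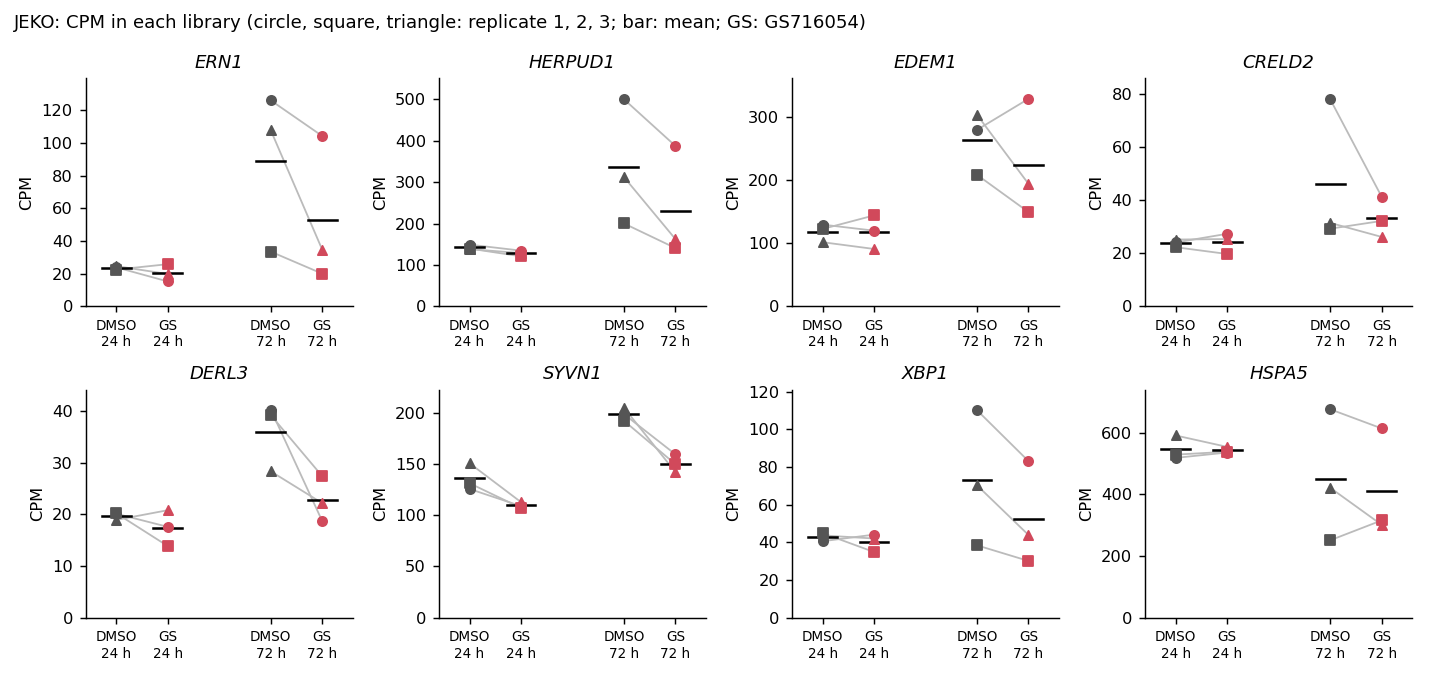
CPM of 8 genes in the 12 JEKO libraries, with DMSO in grey, GS716054 in red, lines joining libraries of the same replicate number and bars at the means. ERN1, HERPUD1, EDEM1, CRELD2, DERL3 and SYVN1 were higher at 72 h than at 24 h with DMSO, and replicate 1 (circle) was high at 72 h for HERPUD1, XBP1 and HSPA5 in both groups.

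In UPN-1 the ERAD genes held most of the calls made with the block. SYVN1 was at 139, 144 and 145 CPM with DMSO and 104, 109 and 105 CPM with GS716054 at 24 h (block -0.44 ± 0.06, adjusted p = 0.000413). At 72 h it was at 159.5, 162 and 153 CPM and 123, 129 and 118 CPM (block -0.34 ± 0.06, adjusted p = 0.00083). The groups were far apart relative to their spread at both times. Without the block edgeR gave adjusted p = 0.344 and 0.205, and DESeq2 0.00366 and 0.0158. HERPUD1 was called lower in UPN-1 at 72 h, at 113, 77.3 and 91.4 CPM and 67.7, 65.0 and 60.1 CPM (block -0.52 ± 0.08, adjusted p = 0.000354). EDEM1 was also called lower there, at 183, 135 and 108 CPM and 106, 106 and 86.0 CPM (block -0.47 ± 0.08, adjusted p = 0.000546). Neither gene's groups overlapped.

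DERL3, a derlin of secretory cells, was called higher in UPN-1 with the block. At 24 h it was at 16.7, 16.6 and 17.0 CPM and 24.6, 26.8 and 22.2 CPM (0.53 ± 0.13, adjusted p = 0.0357), and at 72 h at 31.8, 43.8 and 14.9 CPM and 50.3, 56.7 and 32.5 CPM (0.70 ± 0.11, adjusted p = 0.00039). The groups were apart at 24 h and overlapped at 72 h, with each treated library above the DMSO library of its number. Exons of SMARCB1 on the opposite strand cover 77.0% of the exonic bases of DERL3, and the strand setting of the counting was not given in the sources used here, so its level is uncertain. CREB3L2 was called lower at 72 h, at 93.4, 87.2 and 72.6 CPM and 77.0, 72.4 and 54.5 CPM (block -0.30 ± 0.07, adjusted p = 0.00758), the reverse of its direction in MINO at 24 h.

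BiP and the sensors were not called in UPN-1. HSPA5 was at 389.9, 442 and 430.1 CPM and 385, 423 and 427 CPM at 24 h (-0.04 ± 0.17, adjusted p = 0.9997) and at 263, 260.4 and 411 CPM and 284, 314 and 398 CPM at 72 h (0.11 ± 0.17, adjusted p = 0.9964). XBP1 was at 70.0, 68.2 and 64.6 CPM and 67.4, 57.2 and 58.8 CPM, and at 72 h at 98.4, 70.1 and 58.0 CPM and 78.0, 68.9 and 52.4 CPM. ERN1 was at 12.1, 10.7 and 13.4 CPM and 9.31, 10.5 and 11.8 CPM, and at 72 h at 20.6, 19.6 and 11.9 CPM and 13.6, 14.2 and 11.3 CPM. Treated and DMSO libraries overlapped in all of these, and no adjusted p was under 0.0821 with the block. EIF2AK3 overlapped too, at 45.0, 40.8 and 34.7 CPM and 42.9, 42.2 and 32.5 CPM at 72 h.

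Whether the effect of GS716054 differed among the lines was tested directly in a fit of all 36 libraries. Without the block, edgeR called 0 of the 46 genes at 24 h and 0 at 72 h, where 0.106% and 1.01% of all genes were called. An unadjusted p under 0.05 was found in 1 and 4 of the 46, beside 1326 and 2007 of all 17980 genes. With the block, 3 were called at 24 h (HERPUD1, SYVN1 and FKBP11), where 5.74% of all genes were, and 5 at 72 h (LMAN1, FKBP11, DERL3, XBP1 and HERPUD1), where 9.78% were. The share of the 46 genes called was thus close to that of all genes at both times. The values that follow are from the fits of each line without the block. FKBP11 at 72 h had values of -0.23, -1.13 and -0.13 in the order JEKO, MINO and UPN-1. HERPUD1 at 24 h had -0.16, 0.50 and -0.20, positive in MINO alone. LMAN1 at 72 h had -0.06, -0.86 and -0.01. Without the JEKO replicate 1 pair, 6 genes were called at 72 h with the block, beside 8.74% of all genes. Without the MINO replicate 2 pair, 5 were called, beside 9.25%, with XBP1 no longer among them.

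The effect at 72 h against that at 24 h was tested in MINO. By edgeR, 0 of the 46 genes were called both without the block, where 0.0133% of all genes were called, and with it, where 0.679% were. An unadjusted p under 0.05 was found in 3 and 8 of the 46, beside 755 and 1822 of all 15028 genes. DESeq2 called 0. The calls at 72 h that were absent at 24 h, such as EDEM1, are therefore not shown to differ between the times.

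Genes of the same pathways outside the 46 were counted by list. The PERK arm, which raises ATF4 and its targets, had 8 of 9 genes tested. Without the block, MINO had 1 of them lower at 24 h and 3 at 72 h, beside 0.952% and 2.05% of all genes. At 72 h in MINO all 8 values were negative with a median of -0.81, beside -0.03 over all genes. These RNA levels do not measure the activity of PERK. ATF4 itself, the transcription factor of this arm, was at 239, 269 and 252 CPM and 155, 139 and 170.4 CPM at 24 h (-0.74 ± 0.17, adjusted p = 0.0383). At 72 h ATF4 was at 382, 562 and 436 CPM and 228, 246 and 176 CPM (-1.10 ± 0.17, adjusted p = 0.00327). Its targets SESN2, a stress-induced sestrin, and CHAC1, a glutathione-degrading enzyme, fell at 72 h, with -0.84 ± 0.15 and -1.66 ± 0.36 (adjusted p = 0.00741 and 0.0181). CHAC1 was at 15.5, 13.3 and 13.7 CPM and 7.54, 3.27 and 2.84 CPM, with no overlap.

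The PERK arm had 0 genes called without the block in JEKO and UPN-1. With it, 2 were called lower in MINO at 24 h and 4 at 72 h, 3 in JEKO at 72 h (DDIT3, TRIB3 and PPP1R15A) and 2 in UPN-1 at 72 h (ATF4 and CHAC1). In the same order, 7.36%, 9.8%, 1.44% and 3.29% of all genes were called lower. At an unadjusted p under 0.05 without the block there were 3 in JEKO and 1 in UPN-1 at 72 h and 0 in either line at 24 h. Of all genes, 1438 of 16690 in JEKO and 1130 of 15248 in UPN-1 had such a p at 72 h. DESeq2 called 0 of the PERK arm in all 4 comparisons. DDIT3, which encodes the stress factor CHOP, was at 306, 103 and 185 CPM and 160.0, 60.8 and 111 CPM in JEKO at 72 h (block -0.81 ± 0.12, adjusted p = 0.0055). As with ERN1 and HERPUD1 in JEKO, replicate 1 was the highest of each group.

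Of 15 further ERAD genes, EDEM3, a relative of EDEM1, fell in MINO at 72 h, from 44.3, 37.3 and 37.6 CPM to 29.7, 28.8 and 28.3 CPM (-0.47 ± 0.12, adjusted p = 0.0437). With the block, 5 of the 15 were called higher there and 2 lower, where 10.4% and 9.8% of all genes were. In MINO at 24 h, 2 were called higher and 1 lower, where 8.43% and 7.36% of all genes were. By edgeR without the block, 0 were called in any of the 6 treatment comparisons among 17 other chaperones and oxidases, 21 other genes for targeting, translocation and sugar transfer, 25 coat and cargo receptor genes and 6 genes of ufmylation. At an unadjusted p under 0.05 there were at most 3, 2, 2 and 0 of them in any comparison. Over all genes such counts ran from 577 of 15248 (UPN-1 at 24 h) to 3333 of 15028 (MINO at 72 h). DESeq2 called 1 chaperone in MINO at 24 h and 1 translocation gene in MINO at 72 h, beside 936 and 1557 of all genes.

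B-cell surface genes moved with treatment in the same line. MS4A1, the gene of the surface protein CD20, rose in MINO at 24 h, from 1167, 871 and 1090.0 CPM to 1683, 1684 and 1781 CPM (0.69 ± 0.16, adjusted p = 0.046), and at 72 h (0.77 ± 0.16, adjusted p = 0.0181). CD79B, a signalling chain of the B-cell receptor, rose at 24 h (0.69 ± 0.15, adjusted p = 0.035). Its partner chain CD79A rose at 72 h, from 871, 1389 and 927 CPM to 1808, 2625 and 2305 CPM (1.07 ± 0.20, adjusted p = 0.0102). None of the 3 was called in JEKO or UPN-1 without the block. Their part in the changes of the 46 genes was not tested.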

How the data were processed

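Total RNA of 36 libraries had been prepared with a Qiagen mRNA kit, per the labels' protocols. The authors deposited raw read counts per gene, made with HISAT2 2.2.1 and HTSeq 0.13.5 on GRCh38, per the submitters' processing notes. For the annotation release and strand setting, nothing was given in the sources used here. The 5 summary lines of each file were left out (43.3 to 45.9% of reads in no feature and 40.7 to 44.9% in genes). Symbols and positions came from GENCODE v44, which matched 57532 of the 58302 IDs and all 46 members. A count of 3, the limit that a count of 0 allows, was 0.2 to 0.341 CPM, which covers counting error only. No pair of libraries within a group held identical or near-identical counts.

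The test was edgeR's quasi-likelihood test (version 4.0.16, limma 3.58.1, R 4.3.3) on the counts, with TMM scaling and filterByExpr (minimum count 10, minimum total 15), fitting the 12 libraries of a line, or all 36 for comparisons between lines, with Benjamini-Hochberg adjustment over all genes tested (16690 in JEKO, 15028 in MINO, 15248 in UPN-1 and 17980 in all lines). DESeq2 1.42.0 was an alternative. Only the fit of each line without the block was tested on simulated counts, which held no pairing between libraries. The fits with the block, the fit of all 36 libraries and DESeq2 were not tested that way. Tables and plots used Python 3.11.15, pandas 2.3.3 and matplotlib 3.10.9. Deviations from group means of DMSO and GS716054 libraries of the same number correlated at 0.055 to 0.213 in JEKO at 24 h and at 0.107 to 0.593 in the other 5 comparisons, every pair of which exceeded 0.1, and at -0.065 to 0.169 between DMSO libraries at 24 h and 72 h. In MINO at 72 h, replicate 3 correlated at 0.287 with its own number and at 0.332 with another. In JEKO at 24 h each replicate correlated more with its own number (0.131, 0.055 and 0.213) than with another (at most 0.032, 0.008 and -0.077). The numbers were taken to pair libraries within a time in the 5 comparisons other than JEKO at 24 h. The block within each time leaves 4 residual degrees of freedom instead of 8. It was added after seeing the data, as were the fits without the JEKO replicate 1 or MINO replicate 2 pair at 72 h.

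The members, gene lists and rules were chosen with earlier results of these data known. Genes were named by rule: HSPA5, XBP1, ATF6, ERN1 and EIF2AK3, every member called without the block in a treatment comparison, the 4 called members with the largest difference per pair of lines, the 4 of smallest p per comparison with the block, and up to 3 called genes per other list. Others named, such as SSR1, SSR2, SSR3, WFS1 and the genes in counts of 10 or fewer, were chosen after their values were seen. Exons on the opposite strand overlap 56.6% of SPCS1 and 25.2% of PDIA6, whose counts are therefore uncertain too.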

Additional observations from a re-analysis of the deposited data

Results flagged for a closer look

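With the replicate block, the effect of GS716054 differed among the 3 lines in 3 genes at 24 h and 5 at 72 h, by edgeR's adjusted p for the difference itself over all 17980 genes, where 5.74% and 9.78% of all genes were called. At 24 h these were HERPUD1 (adjusted p = 0.0106; -0.16, 0.50 and -0.20 in the order JEKO, MINO, UPN-1), SYVN1 (adjusted p = 0.0205; -0.32, 0.12 and -0.44) and FKBP11 (adjusted p = 0.0257; -0.19, -0.99 and -0.19). At 72 h they were LMAN1 (adjusted p = 0.00311), FKBP11 (adjusted p = 0.00328), DERL3 (adjusted p = 0.00366; -0.66, -0.0015 and 0.64), XBP1 (adjusted p = 0.0139; -0.48, -1.01 and -0.17) and HERPUD1 (adjusted p = 0.035; -0.55, -0.05 and -0.53). The log2 fold changes beside these adjusted p values are from the fits of each line without the block. Without the block the same 8 tests gave adjusted p from 0.132 to 0.832.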

How the results depend on the processing

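The count of the 46 genes called depended on the fit. Without a low-count filter it was 1 for JEKO, 7 for MINO and 3 for UPN-1 with treatment at 72 h, 1 for the difference among lines at 72 h, and 13, 9 and 5 for JEKO, MINO and UPN-1 over time with DMSO. In the order JEKO, MINO and UPN-1, those fits called 355 of 31262, 1492 of 27323 and 231 of 28698 genes with treatment at 72 h. Over time they called 5583, 1727 and 1845 genes. The replicate block within a time gave 2 for JEKO at 72 h, 7 and 9 for MINO at 24 and 72 h, 2 and 5 for UPN-1, and 3 and 5 for differences among lines. A replicate block over both times gave 6 for MINO and 1 for UPN-1 with treatment at 72 h, and 8 and 14 over time, where the numbers do not pair. Of all genes, it called 1536 of 15028 in MINO and 223 of 15248 in UPN-1 with treatment at 72 h. Over time it called 1819 genes in MINO and 2784 in UPN-1. DESeq2 gave 1 for JEKO and 7 for MINO at 72 h, and 1 for UPN-1 at each time. Over all genes it called 226 in JEKO and 1557 in MINO at 72 h, and 19 and 158 in UPN-1 at 24 and 72 h. Only the 6 libraries compared gave 11 for MINO at 24 h, 0 at 72 h, and 1 for UPN-1 at 24 h. In that order, these fits called 2557 of 14083, 101 of 14612 and 30 of 13813 genes. At 72 h, leaving out the JEKO replicate 1 pair gave 3 for JEKO with the block. Leaving out the MINO replicate 2 pair gave 10 for MINO (13 with the block). For the difference among lines, leaving out these pairs gave 6 and 5. DMSO at 72 h gave 25 for UPN-1 against JEKO. The count over all genes in that comparison is not given here, and at 24 h 8080 of 17980 genes were called between these lines. Leaving out 1 library gave, over time, 3 to 11 for JEKO, 0 to 1 for MINO and 0 to 13 for UPN-1. Over all genes the same fits called 2717 to 4914, 4 to 235 and 1 to 3084. With treatment, leaving out 1 library gave 0 for MINO at 24 h and 1 to 6 at 72 h (1 without DMSO replicate 1, 6 without GS716054 replicate 2). Over all genes it gave 27 to 91 at 24 h, and at 72 h 374 without DMSO replicate 1 and 872 without GS716054 replicate 2. Leaving out 1 library gave 11 to 16 for MINO against JEKO, and 0 to 1 for the difference among lines at 72 h (1 without JEKO DMSO replicate 1 or MINO DMSO replicate 2). With all libraries and without the block, 8623 and 182 of 17980 genes were called in these comparisons. The block changed no other call among the 46 genes than those given. The cause of these changes was not tested.

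Among the values of single genes, 26 changed sign, none of them called. HSPA5 for MINO at 72 h was 0.16 without the replicate 2 pair, with and without the block, and EIF2AK3 for JEKO at 24 h was 0.0026 without a filter and 0.0019 in the fit of all 36 libraries. The others came from leaving out 1 library, and their full ranges follow. HSPA5 ranged from -0.052 to 0.035 for JEKO at 24 h, from -0.550 to 0.285 for JEKO at 72 h, from -0.240 to 0.059 for MINO at 72 h, from -0.087 to 0.0083 for UPN-1 at 24 h and from -0.052 to 0.359 for UPN-1 at 72 h. XBP1 ranged from -0.326 to 0.071 for UPN-1 at 72 h. ATF6 ranged from -0.0094 to 0.162 for JEKO at 24 h, from -0.047 to 0.092 for MINO at 72 h and from -0.0076 to 0.095 for UPN-1 at 72 h. EIF2AK3 ranged from -0.115 to 0.101 for JEKO at 24 h, from -0.059 to 0.020 for UPN-1 at 24 h and from -0.114 to 0.090 for UPN-1 at 72 h.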

Other observations

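A list of 8 plasma cell genes was measured beside the 46 genes, since XBP1 acts in that cell type. Its members JCHAIN, CD38, POU2AF1 and ELL2 are not described here, so the genes below do not stand for the whole list. PRDM1, a transcription factor of plasma cells, rose in JEKO at 72 h, from 3.33, 2.85 and 4.73 CPM with DMSO to 10.7, 7.73 and 9.23 CPM with GS716054 (1.34 ± 0.23, edgeR adjusted p = 0.0225). That fit called 34 of all 16690 genes higher. In MINO at 72 h it was at 9.997, 19.1 and 8.63 CPM and 7.07, 11.3 and 7.20 CPM (-0.56 ± 0.34, adjusted p = 0.362). IRF4, another regulator of that fate, was called lower with the block at 72 h in all 3 lines, with -0.60 ± 0.14, -0.66 ± 0.13 and -0.50 ± 0.06 in the order JEKO, MINO, UPN-1 (adjusted p = 0.0354, 0.00335 and 3.45e-05). TNFRSF17, the receptor BCMA, was also called lower at 72 h with the block in all 3, with -1.08 ± 0.17, -1.02 ± 0.21 and -0.83 ± 0.22. In the same order, 1.44%, 9.8% and 3.29% of all genes were called lower. SDC1, a surface marker of plasma cells, was called higher with the block in JEKO and UPN-1 at 72 h (1.52 ± 0.32 and 1.25 ± 0.17). In those fits 316 of 16690 and 638 of 15248 genes were called higher. In MINO SDC1 had -0.24 ± 0.22 (adjusted p = 0.488).

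Of the KDM5 genes KDM5A, KDM5B and KDM5C, none was called without the block. KDM5B was called higher with the block in MINO at 24 h, at 34.0, 56.6 and 35.2 CPM and 61.9, 106 and 64.0 CPM (0.85 ± 0.11, adjusted p = 0.000252), and in UPN-1 at 72 h (0.40 ± 0.08, adjusted p = 0.00457). Replicate 2 of MINO at 72 h was also far above the others in KDM5B, at 270.4 CPM with DMSO and 257 CPM with GS716054, beside 64.8 to 79.9 CPM in the other 4 libraries.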
